A study of Saccharomyces cerevisiae with 16 samples.

Results

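The comparison concerns budding yeast cells whose only copy of the kinase gene HRR25 is the altered allele hrr25is, set between the deposited conditions A and B of the CMK experiment. Members were all features with a mean signal of at least 20 over the table of these cells, which left 6198 of 6760 listed features, against 6885 features listed in at least 1 of the 4 tables of the series. At the limit, RRT15 was just inside with a mean signal of 20.1 and THI12 just outside with 19.999. The hrr25is cells carried the substitutions I82G and I23C in Hrr25 on plasmid pRS315, and the WT cells of the parallel CMK table carried HRR25 on pRS316. All strains of the series shared his3Δ, leu2Δ, ura3Δ and a chromosomal deletion written Hrr25Δ::kanMX4. A further strain, hrr25as, with I82G alone on pRS315, was treated with 3MBPP1 according to its titles, while the shared protocol text names only DMSO and CMK. Cultures in YPD at 30°C were divided at an OD600 of 0.3 and exposed for 1 hour, with 2 libraries per group (hrr25is with DMSO, hrr25is with CMK, WT with DMSO, WT with CMK), and the sources used here give neither doses nor whether cultures were separate. P-values therefore measure only the spread between these samples. The table does not say which condition is DMSO, so every fold change is condition B over condition A and its direction rests on that order. In every strain the kinase was made from a plasmid, whose copy number was not measured.

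Hrr25 is the yeast member of the casein kinase 1 delta and epsilon family. It phosphorylates assembly factors on the maturing 40S ribosomal subunit, among them Ltv1 and Enp1, and it also acts in vesicle transport, selective autophagy, meiotic chromosome segregation and the DNA damage response. Alleles made sensitive to an added inhibitor are used to block a kinase within the time of a drug treatment.

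The 4 libraries of the hrr25is table were not all of 1 strain. One of the condition B libraries (34122412 reads) was equal, read for read, at all 6760 features to a condition B library of the WT table, and is called the shared library here. The other 3 libraries of the hrr25is table held 16815301 and 20135699 reads in condition A and 20538783 in condition B. HRR25 stood at 109 and 84.1 RPM (reads scaled to a common library total) in condition A and at 144 in the unshared condition B library, and at 758 in the shared one. The remaining 3 WT libraries held HRR25 at 691 to 864 RPM, so the shared library lay within the WT range and outside that of hrr25is. URA3, the marker of pRS316, was at 5.23, 4.57 and 2.48 RPM in the 3 unshared libraries and at 1629 in the shared one. LEU2, the marker of pRS315, was at 85.8, 78.9 and 75.4 against 0.440. The strain markers of the shared library were thus those of WT, opposite to its place in the hrr25is table. HIS3 did not separate the strains and lay between 23.5 and 34.4 RPM in all 7 distinct libraries. Calls and the effects of several single genes are given below as deposited, with the shared library, and again without it. Gene lists and their members are given without it unless stated. In these bulk samples fewer cells and less RNA per cell cannot be told apart.

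Short sequences are shown first for the genes on which the results turn, read from the RefSeq R64 genome, which is build sacCer3. The PHO5 promoter is shown because PHO5 was the gene called with and without the shared library. It covers chrII:431052-431351 on the minus strand, positions -400 to -101 from the first base of the gene, and capitals mark the motif CACGTG, the core bound by the phosphate activator Pho4. The ADE17 promoter is shown because ADE17 had the lowest fold change of all members. It covers chrXIII:509281-509580 on the minus strand, positions -300 to -1, and capitals mark TGACTC, a core bound by Gcn4 and by the purine activator Bas1.
PHO5: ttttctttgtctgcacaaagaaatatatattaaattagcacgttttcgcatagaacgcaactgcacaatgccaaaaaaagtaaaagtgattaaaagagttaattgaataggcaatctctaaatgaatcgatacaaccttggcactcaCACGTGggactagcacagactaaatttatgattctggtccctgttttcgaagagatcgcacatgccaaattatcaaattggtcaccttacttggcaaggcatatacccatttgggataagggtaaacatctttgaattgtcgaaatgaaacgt
ADE17: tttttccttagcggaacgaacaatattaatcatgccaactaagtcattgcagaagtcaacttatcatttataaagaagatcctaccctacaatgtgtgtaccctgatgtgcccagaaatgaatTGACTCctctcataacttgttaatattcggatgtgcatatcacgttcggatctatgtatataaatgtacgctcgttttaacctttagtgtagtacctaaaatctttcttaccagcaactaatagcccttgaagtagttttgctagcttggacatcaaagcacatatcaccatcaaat
Searched on both strands, CACGTG was in 4.55% and TGACTC in 7.77% of the 6001 windows at the same positions before protein-coding genes. The next 3 are the 100 bases after the 3′ ends of the small nucleolar RNA genes SNR47 (chrIV:541502-541601, minus strand), SNR68 (chrIX:97247-97346, plus strand) and SNR82 (chrVII:317056-317155, plus strand). They are shown because the protein-coding gene that follows each of them had a log2 fold change above 1 without the shared library.
SNR47: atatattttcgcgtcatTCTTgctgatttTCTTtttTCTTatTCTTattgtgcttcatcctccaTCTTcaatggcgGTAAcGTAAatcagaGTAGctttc
SNR68: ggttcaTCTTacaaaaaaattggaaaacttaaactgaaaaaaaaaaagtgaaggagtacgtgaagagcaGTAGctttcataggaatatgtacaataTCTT
SNR82: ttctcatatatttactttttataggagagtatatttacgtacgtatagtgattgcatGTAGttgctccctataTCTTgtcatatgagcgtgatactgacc
Capitals mark TCTT, GTAA and GTAG on the transcribed strand, the DNA letters of the RNA motifs known for Nab3 and Nrd1, which end small nucleolar RNA transcripts. SNR47 held 8 of these motifs, SNR68 held 3 and SNR82 held 2, beside a median of 3 and a range of 0 to 8 over the 68 snoRNA genes that lie outside other genes. At least 1 was present in 94.1% of those windows.

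In the deposited comparison 3 members passed an adjusted p of 0.05, which was 0.0484% of those tested, and 154 members (2.48%) had an unadjusted p under 0.05. PHO5 and MF(ALPHA)2 fell (0.0323%) and URA3 rose (0.0161%). PHO5 (chrII:429548-430951) encodes the secreted acid phosphatase that is made when phosphate is short. Its normalised read count was 4898 and 5353 in condition A, 731 in the unshared condition B library and 1132 in the shared one. The 4 WT libraries, the shared one included, lay between 912 and 1251, so only the 2 condition A libraries of hrr25is were high. The authors' deposited table gave a log2 fold change of -2.46, adjusted p 5.50e-10. MF(ALPHA)2, a gene for the alpha-factor mating pheromone, stood at 7624 and 9054 in condition A, 2564 in the unshared condition B library and 3221 in the shared one. The other WT libraries held 3330 to 3884, again below both hrr25is condition A libraries. In the authors' deposited table its log2 fold change was -1.53 (adjusted p 4.25e-04). URA3, an enzyme of uracil synthesis, was called in the authors' deposited table at a log2 fold change of 7.16 (adjusted p 9.56e-06). Its normalised read counts were 112 and 114 in condition A, 43.3 in the unshared condition B library and 32168 in the shared one. The URA3 call rests on the shared library, and without it the log2 fold change was -1.36. When limma was run on the 4 libraries as deposited, 0 members passed in either direction (375, or 6.05%, had an unadjusted p under 0.05), with PHO5 at an adjusted p of 0.0815.

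**Figure D1:**
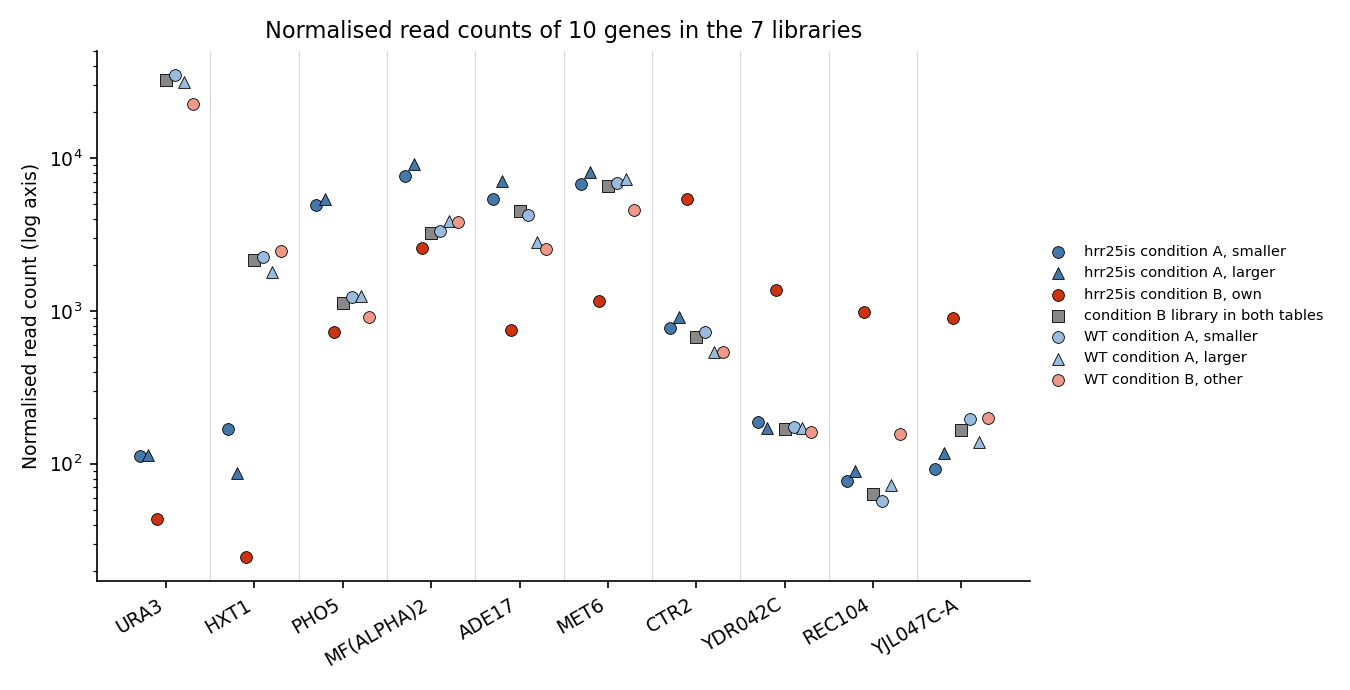
Normalised read counts (log axis) of 10 genes in each of the 7 distinct libraries of the CMK tables, 1 point per library, coloured by strain and condition. The unshared hrr25is condition B library (red) lies apart from both hrr25is condition A libraries (dark blue) for every gene shown, while the shared library (grey square) lies with the WT libraries for URA3 and HXT1.

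Without the shared library PHO5 was again the gene that passed. Limma was fitted to log2 normalised counts of all 7 distinct libraries of both CMK tables, so that the single remaining condition B library of hrr25is was assumed to vary like the other groups. PHO5 fell by 2.81 on the log2 scale (SE 0.222, 95% interval -3.33 to -2.28, adjusted p = 0.0286 in limma), a level 6.99-fold lower in condition B. That call was 1 of 6198 members (0.0161%, lower), 0 members passed as higher, and 504 (8.13%) had an unadjusted p under 0.05, of which 183 (2.95%) were higher and 321 (5.18%) lower. MF(ALPHA)2 had a log2 fold change of -1.70 (SE 0.243, adjusted p = 0.160 in limma) and did not pass. The call was lost (0 members called) when either hrr25is condition A library or either WT condition A library was left out, with PHO5 at an adjusted p of 0.0999 to 0.333 in limma. Left out of the pooled spread instead, the shared library gave 73 calls (1.18%), and the other WT condition B library gave 76 (1.23%), with 72 genes in both sets. Those WT condition B libraries differed from each other by a median of 0.421 on the log2 scale over features. The same median was 0.191 for the condition A pair of hrr25is and 0.262 for that of WT. Leaving out both WT condition B libraries at once was a setting chosen after the data were seen. With both WT condition B libraries left out, 24 members were called higher and 52 lower, 0.387% and 0.839% of those tested. Fitted to the 3 hrr25is libraries alone, limma called 322 higher (5.2%) and 502 lower (8.1%) with 1 library in condition B.

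ADE17 and YJL047C-A had larger fold changes than PHO5, and MET6 and CTR2 slightly smaller ones, and none of the 4 passed with all 7 libraries. CTR2, YJL047C-A, LEU1, YDR042C, REC104, FLX1 and USE1 are named here and below although no naming rule picked them, and were chosen after their values were seen. ADE17, which makes the last steps of inosine monophosphate synthesis, stood at 5415 and 7067 normalised reads in condition A, 747 in the unshared condition B library and 4497 in the shared one. Its log2 fold change was -3.05 (SE 0.406, adjusted p = 0.135 in limma), the lowest of all members. MET6, the methionine synthase, went from 6750 and 8059 to 1165 normalised reads in the unshared condition B library, with 6550 in the shared one. The MET6 log2 fold change was -2.66 (SE 0.284, adjusted p = 0.0534 in limma). In both genes the shared library and the WT libraries stood well above the unshared condition B library, so that the log2 fold changes in the authors' deposited table were closer to 0, at -1.25 for ADE17 and -0.94 for MET6. CTR2, a copper transporter of the vacuole, was higher in the unshared condition B library, at 5352 normalised reads against 774 and 910 in condition A and 671 in the shared library. Its log2 fold change was 2.67 (SE 0.277, adjusted p = 0.0534 in limma). CTR2 begins 231 bases after ENO2, an enolase gene on the same strand, whose own log2 fold change was -0.81. YJL047C-A, an open reading frame of no stated role, stood at 91.8 and 117 in condition A, 897 in the unshared condition B library and 165 in the shared one. Its log2 fold change was 3.10 (SE 0.369, adjusted p = 0.0875 in limma). Leaving out both WT condition B libraries, a setting chosen after the data were seen, lowered the adjusted p-values of these 4 genes. Their fold changes stayed the same.

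Fewer members had a log2 fold change beyond 1 in size as deposited than without the shared library, and single genes went the other way. Deposited values are log2 ratios of mean counts over 2 libraries per condition. Values without the shared library are differences of mean log2 counts, with 1 condition B library. The numbers of members below therefore differ in measure and in libraries per condition as well. The authors' deposited table held 87 members (1.4%) above 1 and 40 (0.645%) under -1. Without the shared library 203 members (3.28%) were above 1 and 250 (4.03%) under -1. Of the 203, 70 were also above 1 in the authors' deposited table, and of the 250, 32 were under -1 and 11 had the opposite sign there. HXT1 and LEU1, like URA3, had deposited values of the opposite sign. Those values were also larger in size, but on the unlike measures just named, so the sizes are not directly comparable. As a difference of mean log2 counts over the 4 libraries as deposited, URA3 was at 3.39. HXT1, a low-affinity hexose transporter made at high glucose, was at 170 and 86.4 normalised reads in condition A, 24.6 in the unshared condition B library and 2140 in the shared one. The log2 fold change of HXT1 was 3.08 in the authors' deposited table and the value without the shared library -2.25 (SE 0.407, adjusted p = 0.241 in limma). LEU1, which acts in leucine synthesis, was at 2975 and 3085 in condition A, 1376 in the unshared condition B library and 22706 in the shared one. Its log2 fold change was 1.99 in the authors' deposited table and -1.14 without the shared library. In HXT1 and LEU1 alike the WT libraries lay far above all 3 unshared hrr25is libraries, as did the shared one. ILV3, a branched-chain amino acid enzyme, was at 0.02 in the authors' deposited table and at -1.68 without the shared library.

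**Figure D2:**
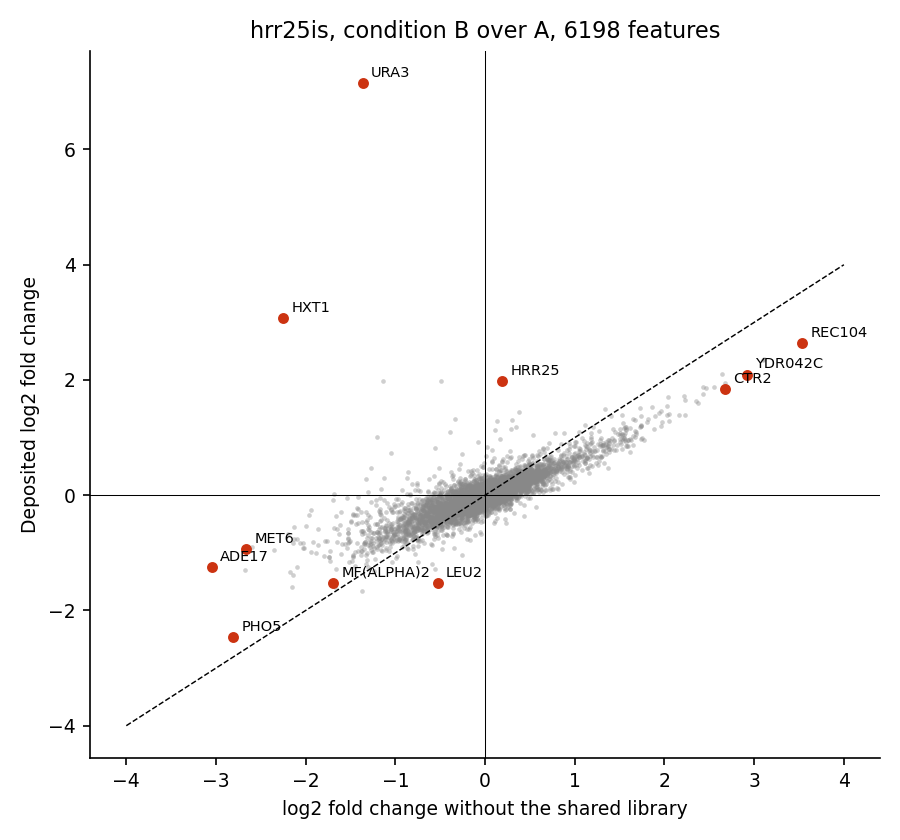
Deposited log2 fold change (vertical axis) against the log2 fold change without the shared library (horizontal axis), both condition B over A, for each of 6198 members, with equality as a dashed line. URA3 and HXT1 lie above 0 as deposited and below 0 without the shared library.

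Cytosolic ribosomal protein genes were lower as a group. All 56 small-subunit genes were lower in the unshared condition B library than in both condition A libraries, as were 80 of 81 large-subunit genes, against 40.9% of all members. The median log2 fold changes without the shared library were -1.05 and -1.07, beside -0.01 for all members, and in WT they were -0.40 and -0.46. As deposited, with the shared library, the medians were -0.72 and -0.68. None of these genes passed with all 7 libraries. RPS13 was the lowest small-subunit gene, at 43483 and 58454 normalised reads in condition A, 11179.6 in the unshared condition B library and 29444 in the shared one, with a log2 fold change of -2.17. The highest small-subunit gene was RPS22B at -0.50, and in the large subunit the values ran from -1.80 for RPL4B to 0.10 for RPL18B. The share of all reads in small-subunit genes was 6.05% and 5.93% in condition A and 3.60% in the unshared condition B library, with 5.05% in the shared one. For large-subunit genes the shares were 7.61%, 7.67% and 4.77%, with 6.73% in the shared library. In both groups the unshared condition B library held the lowest share of all 7 libraries. Scaling by total reads in place of size factors raised the median of all members from -0.01 to 0.39. Relative to that median the 2 groups were at -1.04 and -1.06. Many of these genes have a near-identical copy, and reads may be split between the copies. Mitochondrial ribosomal protein genes had a median of -0.45 (-0.12 as deposited), with 54 of 67 below both condition A libraries. They ran from MRP2 at -0.89 to MRP8 at 0.32.

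Genes that build the ribosome lay on the other side of the median of all members, also when scaled by total reads. In the small-subunit processome, which cuts the early ribosomal RNA precursor, 28 of 45 genes were above both condition A libraries and 6 below, with a median of 0.18, where 39.2% of all members were above. Large-subunit assembly factors had 38 of 53 above and 4 below, with a median of 0.20. The late 40S maturation factors, the group on which Hrr25 acts, had 12 of 15 above and 1 below, with a median of 0.27. LTV1, a substrate of Hrr25, was the highest of them, at 3218 and 2960 normalised reads in condition A, 4373 in the unshared condition B library and 2708 in the shared one, a log2 fold change of 0.50. ENP1, also on the 40S precursor, was the lowest at -0.12. None of these genes passed, and their ends were SNU13 at -0.66 and BUD21 at 0.60 in the processome and TIF6 at -0.35 and DBP2 at 0.58 among large-subunit factors. Subunits of RNA polymerases I and III had a median of 0.11, from RPA14 at -0.59 to RPC53 at 0.32. The factors that modify or end transcription by RNA polymerase II had a median of 0.01, from ESS1 at -0.67 to REF2 at 0.88. Proteasome genes had 29 of 33 above both condition A libraries and 1 below, with a median of 0.28, against -0.21 in WT. PRE6, a core particle subunit, was the highest of them at 0.69 and RPN1, of the regulatory base, the lowest at -0.16.

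Biosynthetic genes were lower in the unshared condition B library, again with PHO5 as the single call. Of 55 amino acid synthesis genes controlled by Gcn4, 50 were below both condition A libraries and 2 above, with a median of -0.59. HIS4, of histidine synthesis, was the lowest, at 9384 and 11005 normalised reads in condition A, 2300 in the unshared condition B library and 5503 in the shared one, a log2 fold change of -2.14, and SER3 was the highest at 0.66. The leucine genes under Leu3 had 11 of 12 below and a median of -0.93 (ILV3 lowest, LEU3 highest at 0.32), while their median in the authors' deposited table was -0.02. Methionine and sulfur genes had 22 of 29 below and a median of -0.43, from MET6 to MET30 at 0.57, and the purine and one-carbon genes had 23 of 24 below and a median of -0.72, from ADE17 to IMD4 at -0.06. Pyrimidine genes had 13 of 16 below and a median of -0.49, from URA1 at -1.37 to PPR1 at 0.43. The phosphate regulon had 16 of 21 below and a median of -0.52, with PHO5 lowest and CTF19 highest at 0.70. Ergosterol genes had a median of -0.42 (CYB5 at -1.07, HES1 at 0.72) and sphingolipid genes one of -0.22 (LCB1 at -0.73, RSB1 at 0.38). The iron regulon had a median of -0.34 but spread from FRE1 at -1.38 to FRE2 at 1.50, both of them cell-surface reductases.

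Carbon metabolism was divided. Of 21 glycolysis and fermentation genes, 17 were below both condition A libraries and 4 above, with a median of -0.74, from PDC1, the main pyruvate decarboxylase, at -1.32 to HXK1 at 0.30. Respiration genes had 34 of 48 below and a median of -0.35, and CYC1, a cytochrome c gene, was the lowest, at 306 and 325 normalised reads in condition A, 73.0 in the unshared condition B library and 298 in the shared one. Its log2 fold change was -2.10 (SE 0.282, adjusted p = 0.135 in limma), and ATP3 was the highest of the list at 0.37. Glucose-repressed genes were at a median of -0.02, from MDH2 at -0.98 to ADR1, their activator, at 1.60, and hexose transporters and sensors at 0.10, from HXT1 to HXT6 at 1.57.

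**Figure D3:**
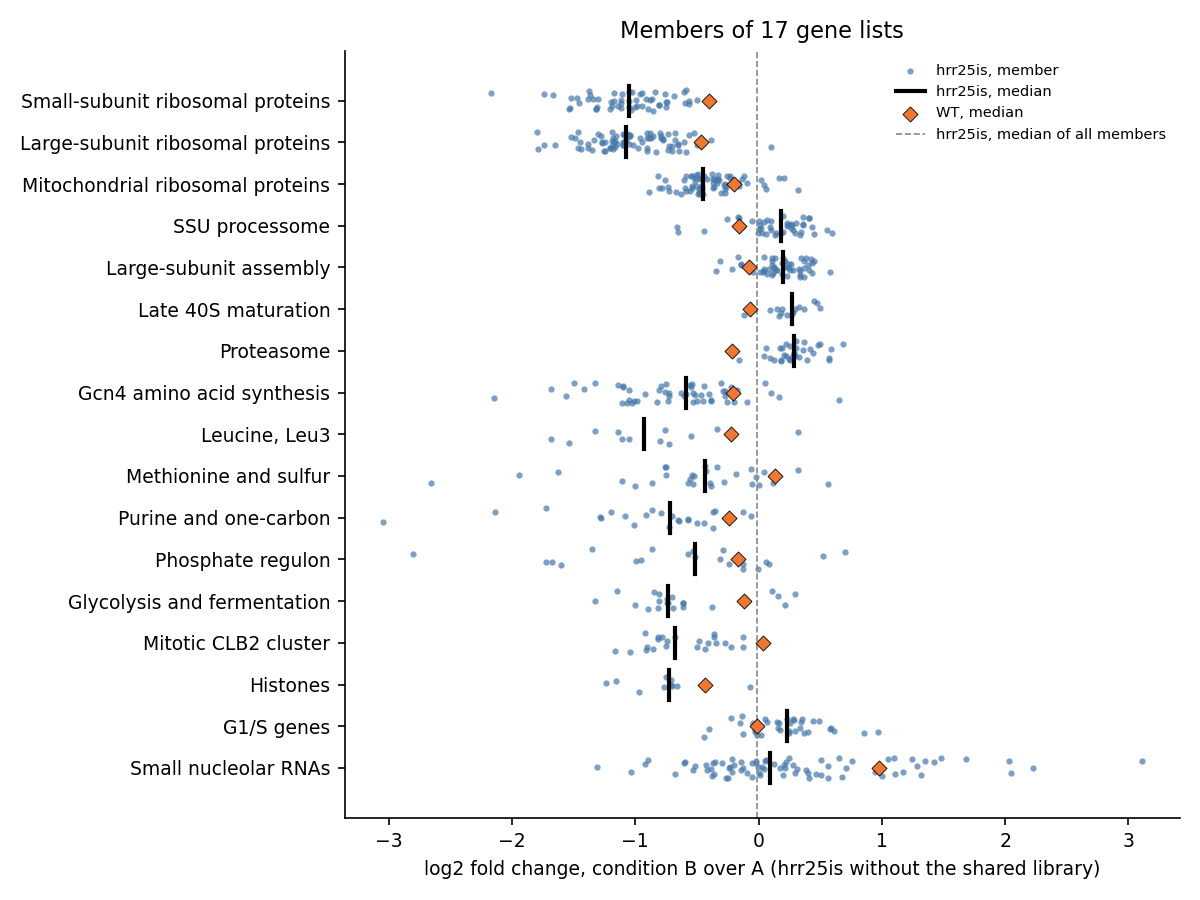
log2 fold change, condition B over A, of each member of 17 gene lists in hrr25is without the shared library (points), with the list median in hrr25is (bar) and in WT (diamond) and the median of all members (dashed line at -0.01). Both cytosolic ribosomal protein lists lie almost wholly below 0 and the proteasome list almost wholly above it.

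The 3 cell cycle lists did not all lie on the same side. As deposited, with the shared library, the medians were -0.49 for the CLB2 cluster, -0.35 for histones and -0.02 for G1/S genes. The values that follow are without it. In the CLB2 cluster, expressed at entry into mitosis, 21 of 23 genes were below both condition A libraries and 0 above, with a median of -0.68 against 0.04 in WT. CHS2, the chitin synthase of the division septum, was the lowest, at 3153 and 3432 normalised reads in condition A and 1468 in the unshared condition B library, a log2 fold change of -1.16, and IQG1 was the highest at -0.12. All 10 histone genes were below both condition A libraries, with a median of -0.73 (HTA1 at -1.24, HTZ1 at -0.07), and in WT the median was -0.43. G1/S genes went the other way, with 25 of 37 above and 5 below and a median of 0.23, from GIC1 at -0.44 to CSI2 at 0.97. Cell cycle phases of the cultures were not measured.

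Stress and signalling lists had medians between -0.24, for COPII coat genes, and 0.20, for the DNA damage response. The Msn2 and Msn4 general stress genes had a median of 0.10, from GND2 at -0.43 to GRE1 at 1.67, and the Yap1 oxidative stress genes one of -0.09, from AHP1 at -1.11 to GTT2 at 0.92. Heat shock chaperones had a median of -0.16, from SSC1, of the mitochondrial matrix, at -1.42 to SGT2 at 0.77, and 18 of 30 were below both condition A libraries and 12 above. Targets of the drug resistance regulators Pdr1 and Pdr3 had a median of 0.10 (TPO4 at -0.82, GRE2 at 0.53), and cell wall integrity genes one of -0.09 (PIR1 at -0.75, CWP1 at 0.72). In the DNA damage response, 15 of 22 genes were above both condition A libraries and 4 below, with a median of 0.20, from SML1, an inhibitor of ribonucleotide reductase, at -0.87 to DIN7, a mitochondrial nuclease, at 1.61. Of 18 genes of the COPII coat, which buds vesicles from the endoplasmic reticulum, 14 were below both condition A libraries and 2 above, with SAR1 at -0.79 and SEC12 at 0.41. Autophagy genes were at 0.09 (APE1 at -0.69, ATG39 at 0.96) and Crz1 targets of calcineurin at 0.02 (PHO89 at -1.68, GSC2 at 0.66). ATG39 lay at 0.52 or 1.41 when 1 condition A library was left out. Pheromone response genes were at 0.18, from MF(ALPHA)2 to FUS2 at 1.01. Of the 5 casein kinase 1 genes, HRR25 itself was the highest at 0.19 and YCK1 the lowest at -0.34. None of the genes in this paragraph passed with all 7 libraries.

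Protein-coding genes after snoRNA genes held high and low values alike. Among 31 protein-coding genes that lie within 1000 bases after a snoRNA gene on the same strand, 3 had a log2 fold change above 1 (9.68%, against 3.28% of all members) and 3 had one under -1 (9.68%, against 4.03%). The low ones, also chosen after their values were seen, were the ribosomal protein genes RPS14A at -1.47 and RPL7A at -1.30, and DFR1, a dihydrofolate reductase, at -1.05. In WT 0 of the 31 were above 1 and 0 under -1. YDR042C, of unknown role, lies 398 bases after SNR47 and stood at 188 and 172 normalised reads in condition A, 1361 in the unshared condition B library and 170 in the shared one. Its log2 fold change was 2.92 (SE 0.284, adjusted p = 0.0534 in limma). FLX1, a mitochondrial carrier of flavin nucleotide, lies 148 bases after SNR68, stood at 339, 404, 1180 and 436 normalised reads in the same order and had a log2 fold change of 1.67. USE1, a fusion protein of the endoplasmic reticulum, lies 286 bases after SNR82, stood at 733, 800, 1934 and 689 and had a log2 fold change of 1.33. In each of these genes only the unshared condition B library was high among all 7 libraries. In the windows printed above, the motif count after SNR47 was at the top of the range over the 68 snoRNA genes, that after SNR68 was at the median and that after SNR82 below it. Over the 31 genes, 12 were above both condition A libraries and 14 below, with a median of -0.03. REC104, a meiotic recombination gene, had the highest log2 fold change of all members, 3.54 (SE 0.566, adjusted p = 0.160 in limma). It lies 1589 bases after SNR71 and stood at 76.5 and 90.1 normalised reads in condition A, 975 in the unshared condition B library and 63.7 in the shared one, and snR71 itself had a log2 fold change of 2.04. The snoRNA genes had a median of 0.09, and one of 0.97 in WT. Of 78, 37 (47.4%, against 39.2% of all members) were above both condition A libraries and 21 (26.9%, against 40.9%) below. A log2 fold change above 1 was found in 15 of them, where 3.28% of all members had one. Values under -1 were found in 2, against 4.03% of all members. The share of all reads in snoRNA genes was 13.0% and 14.7% in condition A and 10.5% in the unshared condition B library. Much of that share was snR190, at 85098 and 99763 RPM in condition A and 49264 in the unshared condition B library. Most snoRNA genes had far fewer reads. The ends of the snoRNA list were snR190 at -1.31 (SE 2.06) and snR53 at 3.11. The counts of snR53 were 12.8 and 17.3 in condition A and 136 in the unshared condition B library. The sources used here do not give the strand setting of the read counting, so reads of overlapping and antisense transcripts cannot be told apart.

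**Figure D4:**
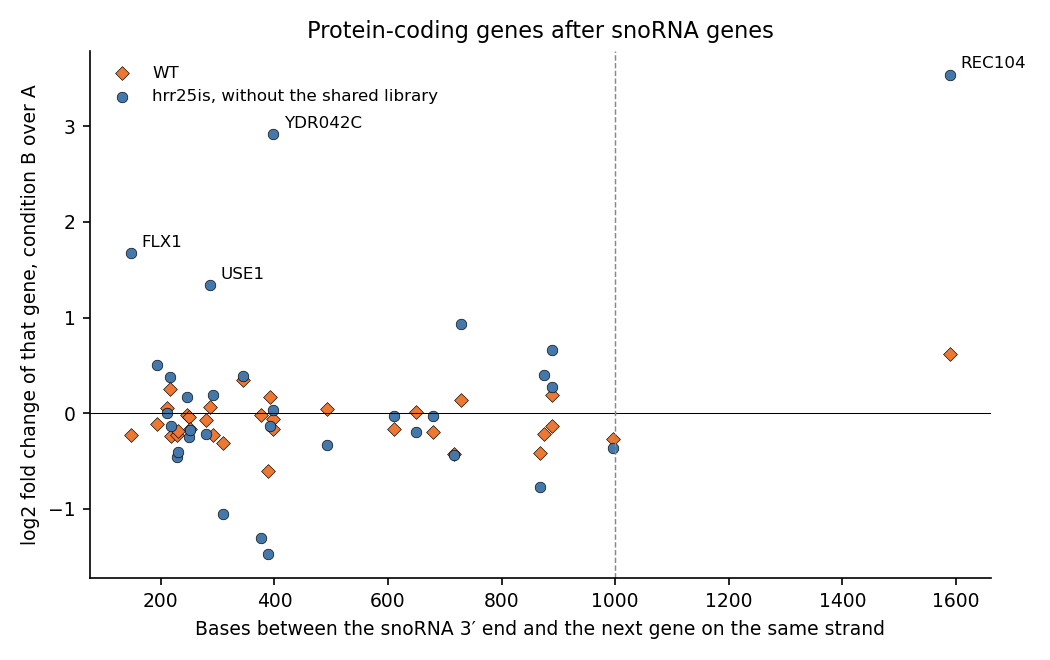
log2 fold change (condition B over A) of protein-coding genes against the number of bases between them and the 3′ end of the snoRNA gene before them on the same strand, for 31 genes within 1000 bases (dashed line) and REC104, in hrr25is without the shared library (circles) and in WT (diamonds). YDR042C, FLX1, USE1 and REC104 lie above 1 in hrr25is, and RPS14A, RPL7A and DFR1 under -1.

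The difference between the hrr25is and WT effects, which asks whether an effect depends on the altered kinase, gave 0 calls in either direction in limma, and 370 members (5.97%) had an unadjusted p under 0.05. The PHO5 effect was -0.29 in WT, and the difference was -2.52 (SE 0.287, 95% interval -3.20 to -1.84, adjusted p = 0.274 in limma). For YDR042C the difference was 2.97 (95% interval 2.11 to 3.84), for CTR2 2.72 (1.87 to 3.56), for ADE17 -3.01 (-4.25 to -1.78) and for MET6 -2.30 (-3.16 to -1.43). Each of these intervals lies on 1 side of 0, and each difference missed the threshold after adjustment over all features, with adjusted p-values of 0.274 to 0.390. With the other WT condition B library left out, 29 differences passed, of which 5 were higher and 24 lower. This reading takes the letters A and B to mean the same treatments for both strains. Allele, plasmid, plasmid marker and HRR25 level differed together between the strains. An effect of the altered kinase therefore cannot be told apart from the others.

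The 3MBPP1 tables hold separate libraries and were read beside the leading members, defined as a log2 fold change beyond 1 in size with an unadjusted p under 0.05 without the shared library, which gave 92 higher and 166 lower features. In the authors' deposited table of hrr25as with 3MBPP1, 90 of the 92 were listed, 83 had the same sign (92.2%, against 51.9% of all features) and 18 were called in that direction, 20% against 1.24% of all features. Of the 166, 162 were listed, 154 had the same sign (95.1%, against 48.1%) and 94 were called lower, 58.0% against 3.21%, and 0 leading members were called the opposite way. ADE17 was at -2.52 (adjusted p 1.91e-11), PHO5 at -2.02 (4.32e-07), YDR042C at 2.54 (1.29e-06) and REC104 at 2.68 (1.53e-06) in the authors' deposited table of hrr25as. MET6 was at -1.10 (0.0735), CTR2 at 1.98 (0.660), YJL047C-A at 2.56 (0.00591) and FLX1 at -0.05 (1.00) there. In the authors' deposited table of WT with 3MBPP1, 80 of the 166 lower members (48.2%, against 5.08%) were called lower and 1 was called higher. Of the 92 higher members 0 were called higher there (against 3.06% of all features) and 5 were called lower, with 21 on the same side (22.8%, against 52.0%). The compounds and the kinase alleles both differ between these tables, so the values are set side by side without a test.

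**Figure D5:**
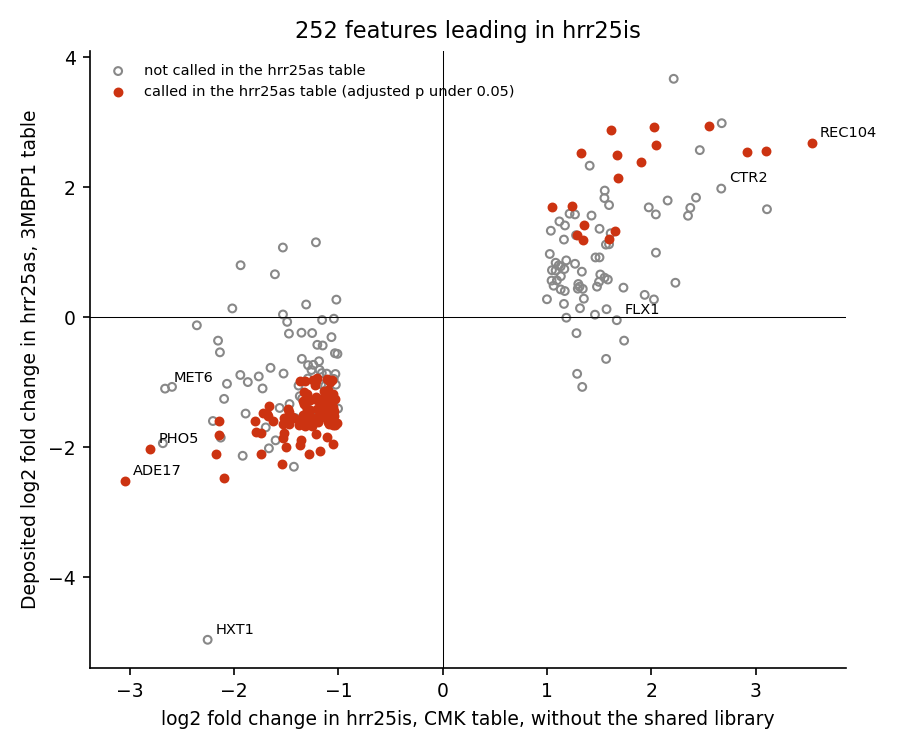
Deposited log2 fold change of hrr25as with 3MBPP1 (vertical axis) against the log2 fold change of hrr25is without the shared library (horizontal axis) for the 90 higher and 162 lower leading members listed in both tables, filled where the authors' deposited adjusted p was under 0.05. Filled points lie in the lower left and the upper right, and FLX1 lies near 0 on the vertical axis.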

How the data were processed

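RNA from 16 samples in 8 groups was sequenced after removal of ribosomal RNA, and 4 hrr25is samples with 4 WT samples of the CMK experiment were used here. Per the submitters' processing notes, CASAVA 1.8.2, STAR 2.3.0, HTSeq 0.6.0 and build sacCer3 were used. The authors deposited, per the file headers, a mean signal over the table and a mean score (the average normalised count) for each condition, the ratio (fold change) of those means, its log2 value, and p-values with adjusted p-values of a DESeq comparison; the sources used here do not name its version. No column holds a single library. Whole reads per library were recovered from the deposited means, which are averages of counts over size factors: 100% of condition means of both CMK tables had a single solution. The recovery and the fits were run on simulated data, in which all groups had the same spread, unlike the real libraries. There the fit without the shared library found 41% of planted log2 changes of 1 and 94% of those of 2. The difference from WT found 9% and 82%, so it could miss most changes of the smaller size. Libraries are told apart by size factor alone.

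Depth was 9568820 to 34122412 reads per library. Limma 3.58.1 in R 4.3.3 was run with a trend on log2(reads over size factor + 1) for all 6760 features, with Benjamini-Hochberg adjustment over all of them and a threshold of 0.05, so fold changes of low genes are understated. Limma was used in place of the count test that the plan allowed for. No count column exists, and no count test was run on the recovered reads. Symbols and positions came from RefSeq R64, which matched 5714 members.

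Named genes were the strain markers, the genes called in the deposited comparison or without the shared library, and the highest and lowest member of each of 38 gene lists. The members and lists were chosen with earlier results of these data known, so lists are given as counts and medians with no test. Alternatives covered scaling, pseudocount, filter, voom, other sets of libraries and leaving out each library.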

Additional observations from a re-analysis of the deposited data

How the results depend on the processing

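With the condition B library that matches WT left in, limma called 0 members where the authors' test called 3, and this was also 0 under the other scalings, pseudocount 8, the filter and voom. The 3 deposited calls stood with no minimum mean, with a minimum of 100 and at an adjusted p of 0.1. Leaving out single libraries gave 0 to 76 calls without the shared library, 1 to 824 with the 4 libraries as deposited, and 0 to 29 for the difference from WT. Without the shared library, where 1 member passed, total reads gave 4, testing only members gave 2, voom gave 2, the 3 hrr25is libraries alone 824, the wider fit of the libraries of all 4 tables together gave 20 calls, and leaving out both WT condition B libraries (chosen after seeing the data) 76. The cause was not tested. Lists with a median under -0.5 numbered 10, against 3 by total reads, 10 relative to the median of all members, and 2 with the shared library.

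Signs changed by total reads for BAR1 (0.28), MFA1 (0.14), TIF6 (0.056), ENP1 (0.28), RPN1 (0.25), IMD4 (0.34), IQG1 (0.28), HTZ1 (0.33) and YCK1 (0.065), as the median of all members rose from -0.01 to 0.39. Leaving out single libraries also changed signs, with ranges of -0.27 to 0.033 for BAR1, -0.097 to 0.30 for RPL18B, -0.25 to 0.0041 for IQG1, -0.25 to 0.13 for IMD4 and -0.048 to 0.81 for RSB1. Values that kept their sign but moved by a large part of their size included ATG39 (0.52 to 1.41), AHP1 (-1.47 to -0.74), MRP2 (-1.20 to -0.58), GRE2 (0.32 to 0.74), RPA14 (-0.82 to -0.36), DBP2 (0.37 to 0.79), GND2 (-0.57 to -0.29), TIF6 (-0.48 to -0.22), RPN1 (-0.28 to -0.038), HTZ1 (-0.11 to -0.033) and HRR25 (0.11 to 0.27). Larger effects also had wide ranges. These included HXT1 (-2.74 to -1.77), URA1 (-1.73 to -1.01), PHO89 (-2.02 to -1.33), FRE1 (-1.69 to -1.06) and RPL4B (-2.07 to -1.52). Deposited signs of URA3 and HXT1 changed without the shared library (-1.36 and -2.25). No paired analysis was possible because the recovered libraries carry no replicate numbers. With 1 condition B library of hrr25is left, its own spread is unknown, and this limits every value without the shared library. Low counts, as for snR53 and HXT6, give wide errors.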

Other observations

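Transfer RNA genes, a list added after the data were examined, had 154 members with a mean signal of at least 20 and 89 under it. In hrr25is without the shared library their median log2 fold change was 0.81, beside -0.01 for all members. Above both condition A libraries were 134 (87.0%, against 39.2% of all members), and below both were 10 (6.49%, against 40.9%). A log2 fold change above 1 was found in 63, where 3.28% of all members had one. In WT the median was 0.95. Their share of all reads was 0.0800% and 0.0772% in the condition A libraries of hrr25is, 0.186% in the unshared condition B library and 0.1005% in the shared one. The other WT condition B library held 0.799%, the highest of all 7 libraries, against 0.0670% and 0.0889% in WT condition A. The WT median thus moved with 1 library, and mature transfer RNAs are shorter than the sequenced reads, so these counts need not follow mature transfer RNA. They ran from tT(AGU)O2 at -1.07 to tS(CGA)C at 2.43 in hrr25is, and none was called with all 7 libraries.

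A second added list held 330 members whose names have no entry in the reference annotation. Their median was -0.22 in hrr25is without the shared library and 0.96 in WT. In hrr25is, 112 (33.9%, against 39.2% of all members) were above both condition A libraries and 176 (53.3%, against 40.9%) below. The extremes were YDL228C at -2.68 and YDR426C at 2.64, and none passed with all 7 libraries.

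Mating-type markers had the levels of alpha cells in all 7 libraries. STE3, the receptor of alpha cells, lay between 5684 and 10406.5 normalised reads, while the a-cell receptor STE2 lay between 107 and 475 and the a-factor gene MFA1 between 8.11 and 79.1. BAR1, an a-cell protease, lay between 63.5 and 326 and MFA2 between 8.11 and 90.6. In WT condition B these 4 a-cell genes were higher in the unshared library than in the shared one. STE2 and BAR1 were highest in that unshared WT library. MFA1 (56.1 to 79.1) and MFA2 (51.8 to 90.6) were instead higher in all unshared hrr25is libraries than in any WT library, which held at most 27.3 and 45.4.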
